A study of Homo sapiens with 4 samples.

Results

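The aminoacyl-tRNA synthetase genes are 32 of the 19775 genes named on the array, taken by symbol: 1 or 2 letters followed by ARS with an optional 1 or 2, together with EPRS1, FARSA and FARSB. They comprise 17 cytosolic enzymes and 15 mitochondrial ones, which carry the suffix 2. MARS1, QARS1 and TARS2 also match, but their probe sets carry a second symbol as well, and these 3 genes were not analysed here. The cells were U937, an established human lymphoma line with features of immature monocytes, and RNA was measured on Affymetrix U133 Plus 2.0 arrays. Each of 4 groups had 1 array: an untreated control, a culture with 0.05% Sonazoid only, a culture with ultrasound only (1 min at 0.3 W/cm2), and a culture that got both at these settings, called the combination. Sonazoid is a contrast agent of gas-filled microbubbles, and treated cells were left for 3 h at culture temperature before collection. Whether the control was left for the same time is not stated in the labels. The arrays measure RNA pooled over a culture, so fewer expressing cells and less RNA per cell cannot be told apart.

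Each synthetase joins 1 amino acid to its matching tRNAs, and the charged tRNAs then feed the ribosome. Translation in the cytosol and in mitochondria uses separate sets of these enzymes, nearly all encoded by different nuclear genes. KARS1 and GARS1 are exceptions that serve both compartments, and EPRS1 is a fused enzyme that charges tRNAs for glutamate and for proline. Several cytosolic enzymes sit in a large multisynthetase complex held together by the scaffold proteins AIMP1, AIMP2 and EEF1E1. When amino acids run short or the cell is stressed, the transcription factor ATF4 raises many cytosolic synthetase genes through C/EBP-ATF composite elements.

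Because ATF4 is known to act through these elements, the matches to them in the members' promoters are shown. The RefSeq windows of GRCh38.p14, from 250 bases before to 50 bases after a start site, were searched on both strands for TGATGNAA, which reads TTNCATCA on the opposite strand. Windows were present for 27 of the 32 members (not for VARS1, AARS2, VARS2, LARS1 and YARS1), and 7 of the 27 held a match (25.9%), against 1217 of 27305 genes with a window (4.46%). No test was made of these shares. Each sequence below is 30 bases on the gene's own strand, with the match in capitals.
TARS1: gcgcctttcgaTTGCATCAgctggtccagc
GARS1: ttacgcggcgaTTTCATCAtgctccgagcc
IARS1: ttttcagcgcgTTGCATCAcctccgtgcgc
CARS1: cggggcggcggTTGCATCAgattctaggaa
AARS1: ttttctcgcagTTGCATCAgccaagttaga
NARS1: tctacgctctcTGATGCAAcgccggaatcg
YARS2: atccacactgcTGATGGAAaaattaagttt
Their positions were chr5:33440956-33440985 (+) for TARS1, chr7:30594834-30594863 (+) for GARS1, chr9:92293692-92293721 (-) for IARS1, chr11:3057407-3057436 (-) for CARS1, chr16:70289675-70289704 (-) for AARS1, chr18:57621804-57621833 (-) for NARS1 and chr12:32756076-32756105 (-) for YARS2. The 6 cytosolic genes charge threonine, glycine, isoleucine, cysteine, alanine and asparagine. The match of YARS2, the mitochondrial tyrosine enzyme, began 197 bases before the start site, that of AARS1 187 bases before it, and the other matches lay closer. A match is a description of the letters and not evidence of binding.

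All 32 members had a signal above the floor of 23.8, the median of all scaled values, on each of the 4 arrays. Their signals, taken from the brightest probe set of each gene, ran from 134 (PARS2 in control) to 9920 (KARS1 in control). Probe set signals of different genes are not on 1 scale, so members are compared only by their differences between arrays. Where 4 signals of a gene are given, those without ultrasound are control and then Sonazoid only, and those with it are ultrasound only and then the combination.

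Among the myeloid marker genes, 8 were named on the array and 7 of these were above the floor on all arrays, with a summed signal of 21683 to 27060. Summed signals of above-floor markers were 0 to 64.3 for T and NK cells, 167 to 212 for B cells, 34.9 to 63.5 for erythroid cells, 23.9 to 59.2 for epithelial cells and 106 to 164 for fibroblasts. In this order 5, 4, 2, 5 and 4 of these markers were named on the array. The sums cover unlike numbers of genes that are not on 1 scale, so they are only a rough description. The myeloid marker below the floor on some arrays was MPO, a granule enzyme. It lay under the floor in control (3.75), with ultrasound only (20.65) and in the combination (19.01). With Sonazoid only it was just above the floor (28.6).

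Signals of the synthetases lay close together over the 4 arrays. The highest over the lowest array was under 1.2-fold for 21 of the 32 members, at least 1.2-fold for 11 and at least 1.5-fold for 2, the mitochondrial genes EARS2 and YARS2. Among all genes above the floor 64.8% reached 1.2-fold and 24.3% reached 1.5-fold, and among those with a signal of 100 or more on at least 1 array, where all members belong, 57.5% and 13.5% did. The median range was 1.14-fold for cytosolic members, 1.18-fold for mitochondrial members, 1.27-fold for all genes and 1.23-fold for genes at 100 or more. The range was thus narrower in the brighter background, and neither background was matched to the members' own signals. Those ran from 476 to 9920 for cytosolic and from 134 to 3115 for mitochondrial members. The narrowest ranges were those of IARS1 (1.01-fold), SARS1 (1.02-fold) and YARS1 (1.04-fold), the enzymes for isoleucine, serine and tyrosine. These are ranges of the brightest probe sets, and dimmer ones varied more. That of SARS1 ran from 75.2 in the combination to 110 with ultrasound only. That of YARS1 ran from 68.3 in control to 123 with Sonazoid only.

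**Figure D1:**
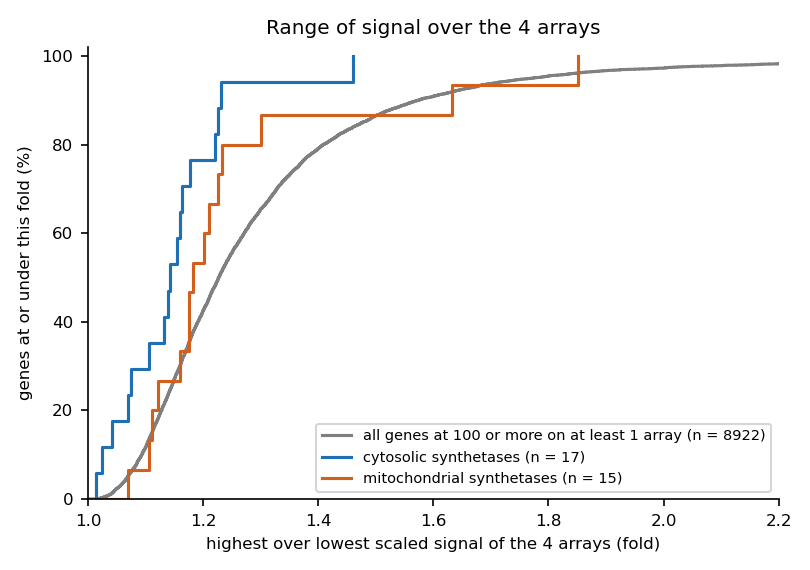
The plot shows the share of genes (%) whose highest over lowest scaled signal of the 4 arrays was at or under the fold on the x axis, for the 17 cytosolic and 15 mitochondrial synthetases and for genes at 100 or more on at least 1 array. The cytosolic line ends at 1.46-fold (RARS1), and the mitochondrial line ends at 1.85-fold (YARS2).

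Each group had 1 array, and no test between groups was run. Members past 1.5-fold, and past 1.2-fold, were counted in each direction. The counts are set against the same share over all genes above the floor and, in brackets, over genes at 100 or more on at least 1 of the arrays compared, which all members were. The only repeated measurement within an array came from members with several probe sets. For 12 members with at least 2 probe sets at 100 or more on all arrays, the log2 difference of ultrasound only from control varied between probe sets of 1 gene by a median of 0.21, from 0.01 to 0.53. In the combination against Sonazoid only this spread had a median of 0.14 and reached 0.30. Of the 32 members 14 had 1 probe set and hence no such check.

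Ultrasound was present in 2 comparisons that share no array, ultrasound only against control and the combination against Sonazoid only. In the first, 0 of the 32 members were at least 1.5-fold higher or lower, where 6.75% (3.58%) of genes were higher and 4.03% (1.62%) lower. At 1.2-fold 1 member was higher, PARS2, and 3 were lower, against 20.8% (15.4%) and 16.2% (12.6%) of genes. The median log2 difference was -0.07 for cytosolic and -0.02 for mitochondrial members, beside 0.02 for all genes. In the second comparison 0 members were at least 1.5-fold higher (5.85% of genes, or 2.75% of those at 100 or more) and 2 were lower, EARS2 and YARS2 (4.36%, or 1.6%). At 1.2-fold 0 were higher and 5 were lower, against 17.6% (11.4%) and 16.6% (12%). The median was -0.04 for cytosolic and -0.05 for mitochondrial members, beside -0.0016 for all genes. Apart from these 2 genes at 1.5-fold and the 5 lower at 1.2-fold in the second comparison, the counts of members were at or below the shares of both backgrounds. At 2-fold 0 members were higher or lower in any of the 5 comparisons. The shares of all genes higher and lower at 2-fold were 1.65% and 0.721% in ultrasound only against control, 1.46% and 0.711% in the combination against Sonazoid only, 0.652% and 0.715% in Sonazoid only against control, 0.7% and 1.16% in the combination against ultrasound only, and 1.39% and 0.872% in the combination against control.

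Small differences leaned to the lower side. In ultrasound only against control 22 of 32 members were lower (13 of 17 cytosolic and 9 of 15 mitochondrial), in the combination against Sonazoid only 25 were lower (13 and 12), and 19 were lower in both. Among 12009 genes measured in both, 47.2% were lower in the first, 50.7% in the second and 28.7% in both, and among the 8922 at 100 or more 47.6%, 51.4% and 30.6% were. With the mean of each gene's probe sets 18 and 27 were lower, and the mitochondrial median in the first comparison was 0.03. Without the scaling of arrays the median of all genes was 0.08 higher in the second comparison and 10 of 32 were lower there, but 25 of 32 were below the median of all genes. Across the 32 members the 2 comparisons had a Pearson correlation of 0.28 and a Spearman correlation of 0.25. The points share the arrays, and EARS2, YARS2, MARS2 and RARS1 lie apart from the rest.

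**Figure D2:**
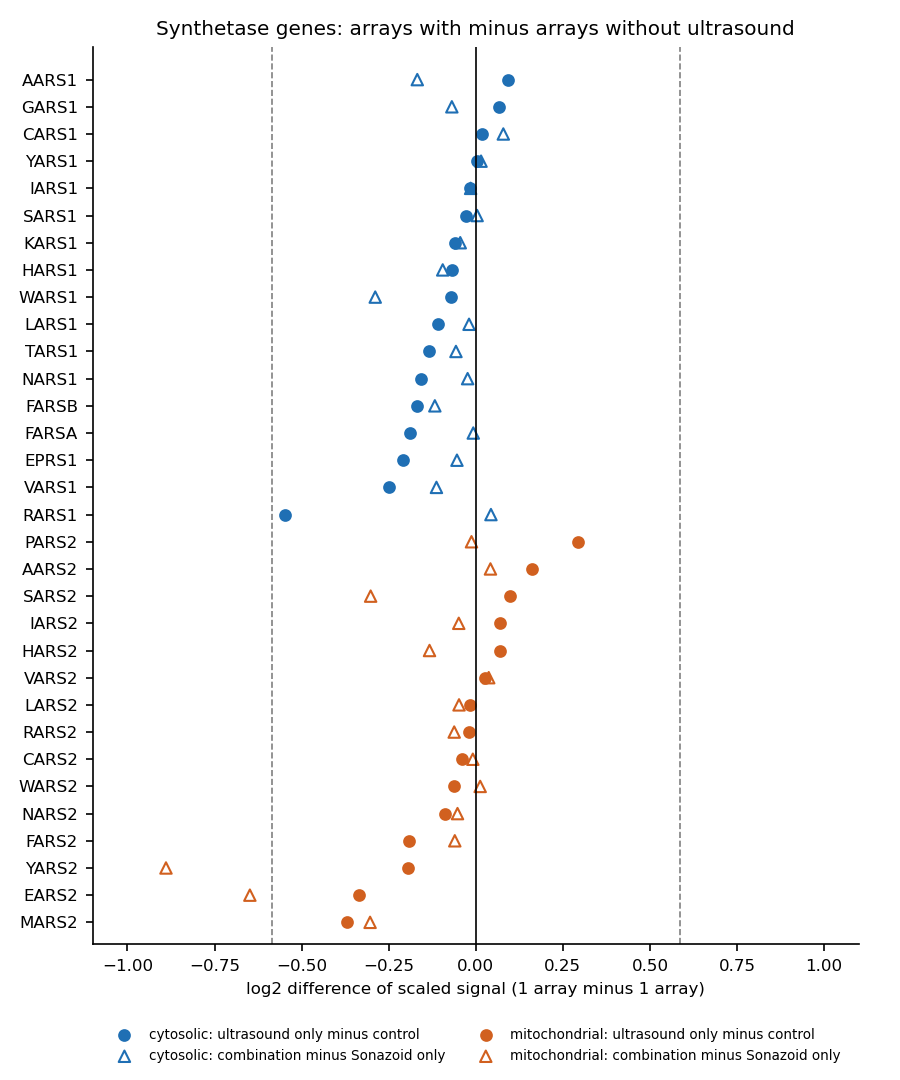
The log2 difference of scaled signal is plotted for each of the 32 synthetase genes, as ultrasound only minus control (filled circles) and the combination minus Sonazoid only (open triangles), in blue for cytosolic and orange for mitochondrial genes. The dashed lines mark 1.5-fold, which only EARS2 and YARS2 pass, both in the combination minus Sonazoid only.

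The members of the multisynthetase complex that were measured were EPRS1, IARS1, KARS1, LARS1 and RARS1. All 5 were lower with ultrasound only than in control, by log2 -0.02 for IARS1 to -0.55 for RARS1, with a median of -0.11. In the combination against Sonazoid only they lay between -0.05 and 0.04. RARS1, the arginine enzyme, stood at 3437 and 2844 without ultrasound and 2354 and 2931 with it. The lowest array was thus ultrasound only, 1.46-fold under control, while the combination was 1.03-fold above Sonazoid only. RARS1 has 1 probe set on the table, and its value without the scaling was -0.59 in ultrasound only against control, just past 1.5-fold.

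EPRS1 had signals of 3525 and 3754 without ultrasound and 3050 and 3617 with it. Ultrasound only was again the lowest array. Its 3 probe sets had log2 differences of -0.21, -0.52 and -0.04 in this comparison, so they differed by more than most members did from 0. LARS1, the leucine enzyme, which is also a leucine sensor for mTORC1, stood at 2074, 2231, 1924 and 2201 in the same order of arrays, and its 4 probe sets gave differences from -0.04 to -0.53. KARS1, the lysine enzyme, stood at 9920, 9526, 9515 and 9236, and IARS1 at 5288, 5271, 5231 and 5217. Neither varied by more than 1.07-fold over the arrays.

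At their brightest probe sets the other 12 cytosolic members all lay within 1.2-fold in ultrasound only against control, and 11 did in the combination against Sonazoid only. The largest differences in the first were those of VARS1 (log2 -0.25), the valine enzyme, at 1315 in control and 1107 with ultrasound only (0.27 with the mean of its probe sets, of which the other is dim), and FARSA (-0.19), the alpha chain of the phenylalanine enzyme, at 2463 and 2162. FARSB, its beta chain, stood at 2933 and 2608 (-0.17). AARS1, the alanine enzyme, was the highest of the cytosolic members at 0.09, followed by GARS1 (0.07) and CARS1 (0.02). These ranks are those of the brightest probe sets. With the mean of probe sets YARS1 was at 0.39, past 1.2-fold through a dim one. In the combination against Sonazoid only the lowest was WARS1, the tryptophan enzyme, which interferon gamma induces, at 581 with Sonazoid only and 476 in the combination (-0.29). Its other probe set gave -0.05, at 462 and 445. AARS1 (-0.17) and FARSB (-0.12) followed, FARSB at -0.60 with the mean of its probe sets, past 1.5-fold through dim ones. At the other end CARS1 (0.08), RARS1 (0.04) and YARS1 (0.02) were the highest.

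The 7 genes with a promoter match did not all stand on 1 side. YARS2, the mitochondrial one, was lower in both ultrasound comparisons, by log2 -0.19 and -0.89, the widest difference of any member. In ultrasound only against control the differences of the 6 cytosolic genes were 0.09 for AARS1, 0.07 for GARS1, 0.02 for CARS1, -0.02 for IARS1, -0.13 for TARS1 and -0.16 for NARS1. In the combination against Sonazoid only they were -0.17, -0.07, 0.08, -0.01, -0.06 and -0.02 in the same order. All of these 6 lay within 1.2-fold in both.

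The widest differences in the combination against Sonazoid only were those of mitochondrial members, while RARS1 was the widest in ultrasound only against control. EARS2, the glutamate enzyme of mitochondria, stood at 393 and 377 without ultrasound and 311 and 241 with it. Both arrays with ultrasound were below both without it. It was 1.26-fold lower with ultrasound only than in control, 1.57-fold lower in the combination than with Sonazoid only, and 1.63-fold lower in that array than in control. Its other 3 probe sets were also lower in the combination than with Sonazoid only (log2 -0.45, -0.39 and, for a dim one near 40, -0.03), but gave 0.20, 0.04 and -0.28 in ultrasound only against control. The mean of its probe sets gave -0.38 in the combination against Sonazoid only and against control alike, under 1.5-fold.

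MARS2, which charges the mitochondrial methionine tRNA, stood at 645 and 650 without ultrasound and 500 and 527 with it. The arrays with ultrasound were 1.29-fold and 1.23-fold under their counterparts without it. At the brightest probe sets EARS2 and MARS2 were the 2 members at least 1.2-fold lower in both comparisons. Of genes measured in both, 4.6% were that much lower in both (3.4% of those at 100 or more). With the mean of probe sets EARS2 was at log2 -0.10 in ultrasound only against control, short of 1.2-fold. FARSB was then past 1.2-fold lower in both (-0.32 and -0.60), through dim probe sets. Of the 32 members 0 were at least 1.2-fold higher in both, against 6.56% (5.13%) of genes. MARS2 rests on 1 probe set.

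YARS2, the mitochondrial tyrosine enzyme, stood at 847 and 1198 without ultrasound and 741 and 647 with it. The array that stands apart is Sonazoid only, 1.41-fold above control. The combination was 1.85-fold below Sonazoid only, while ultrasound only was 1.14-fold below control. YARS2 also rests on 1 probe set, so no second measurement of it was at hand.

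**Figure D3:**
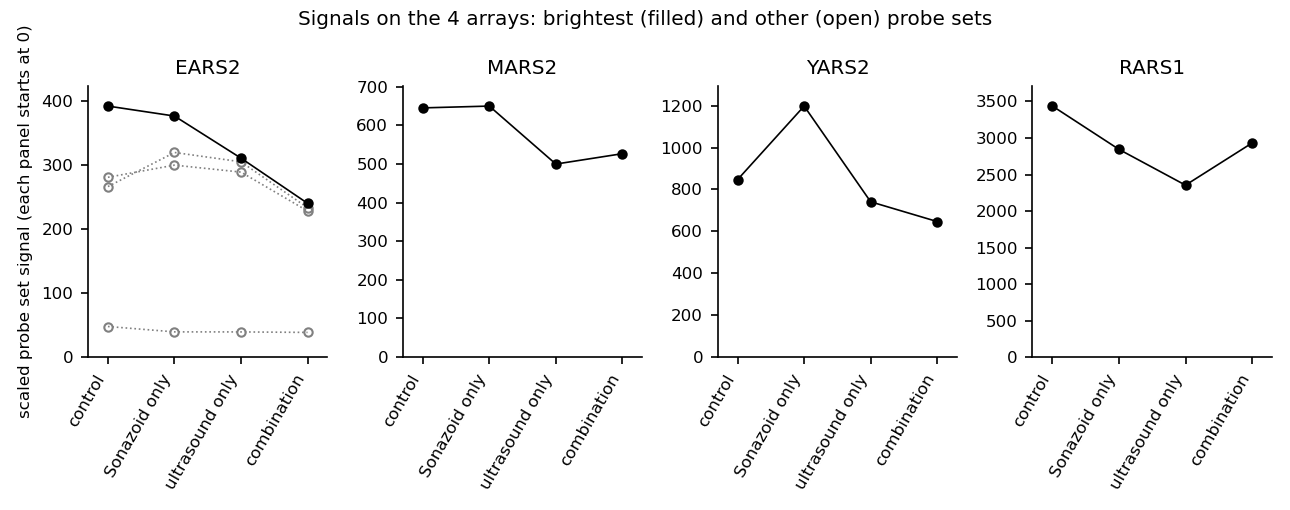
Scaled probe set signals on the 4 arrays are shown for EARS2, MARS2, YARS2 and RARS1, with filled points for the brightest probe set and open points for other probe sets above the floor on all arrays; the lines join values of 1 probe set and mark no order. EARS2 runs from 393 in control to 241 in the combination, MARS2 is lower on both arrays with ultrasound, YARS2 peaks at 1198 with Sonazoid only, and RARS1 is lowest at 2354 with ultrasound only.

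The remaining mitochondrial members were closer together. PARS2, the proline enzyme, stood at 134 and 148 without ultrasound and 164 and 147 with it, so its higher value with ultrasound only (1.23-fold) had no counterpart in the combination against Sonazoid only (log2 -0.01). AARS2 (0.16) and SARS2 (0.10) were next highest in ultrasound only against control; the other above-floor probe set of AARS2 gave -0.18. SARS2, the serine enzyme, stood at 272, 296, 291 and 240, with the combination 1.23-fold under Sonazoid only. In that comparison AARS2 (0.04), VARS2 (0.04) and WARS2 (0.01) were the highest. At their brightest probe sets LARS2, NARS2, RARS2, IARS2, CARS2, FARS2, HARS2, VARS2 and WARS2 all stayed within 1.2-fold in both ultrasound comparisons. The other probe set of LARS2 gave 0.43 in ultrasound only against control, at 292 and 393 (0.21 with the mean). With the mean of probe sets CARS2 was at -0.38 in this comparison and RARS2 at -0.43 in the combination against Sonazoid only. The means of CARS2 and RARS2 include dim probe sets.

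For 11 amino acids both a cytosolic and a mitochondrial enzyme were measured under matching symbols. In ultrasound only against control the cytosolic member had the lower difference in 9 of the 11 pairs, with a median gap of -0.09 (log2), and in the combination against Sonazoid only it had the higher one in 8 of 11, with a median gap of 0.03. The gap was within 1.2-fold in 9 and 8 of the pairs. It was widest for tyrosine in the combination against Sonazoid only, where YARS1 was at 0.02 and YARS2 at -0.89, and for arginine in ultrasound only against control, where RARS1 was at -0.55 and RARS2 at -0.02.

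HARS1 and HARS2, the cytosolic and the mitochondrial histidine enzymes, are neighbours on chromosome 5 that are read in opposite directions from start sites 85 bases apart. The 84 bases between them are shown because both genes start at their ends. They are RefSeq sequence read on the strand of HARS2 at chr5:140691371-140691454 (+) of GRCh38.p14.
HARS1 and HARS2: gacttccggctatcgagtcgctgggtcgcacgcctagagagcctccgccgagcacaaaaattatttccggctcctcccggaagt
This stretch held 0 matches to the composite element. HARS1 stood at 936 and 935 without ultrasound and 892 and 875 with it. HARS2 stood at 402, 393, 421 and 358 in the same order. Both were lower in the combination than in control, by log2 -0.10 and -0.16, and their differences with ultrasound only had opposite signs (-0.07 and 0.07).

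With Sonazoid alone most synthetases lay near control. In Sonazoid only against control 0 members were at least 1.5-fold higher or lower (3.96% and 4.29% of genes, or 0.913% and 1.19% of those at 100 or more), and at 1.2-fold 1 was higher, YARS2, and 1 lower, RARS1 (13.9% each way, or 7.6% and 7.54%). The median log2 difference was -0.0014 for cytosolic and 0.07 for mitochondrial members, beside -0.00034 for all genes; the cytosolic median was 0.02 under quantile normalisation. After YARS2 (0.50) the highest mitochondrial members were LARS2 (0.25), at 520 and 617, and VARS2 (0.20), at 1078 and 1242, and the lowest were FARS2 (-0.15), CARS2 (-0.14) and AARS2 (-0.11). Both above-floor probe sets of LARS2 were higher, by 0.25 and 0.45. Among cytosolic members WARS1 (0.17), LARS1 (0.10) and EPRS1 (0.09) were the highest, and RARS1 (-0.27), VARS1 (-0.18) and FARSA (-0.17) the lowest. With the mean of probe sets YARS1 was at 0.39 and FARSB at 0.335, both through dim probe sets.

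Sonazoid added to ultrasound, in the combination against ultrasound only, gave 0 members at 1.5-fold either way (4.36% of genes higher and 5.88% lower, or 1.51% and 2.62% of those at 100 or more). At 1.2-fold RARS1 was higher (log2 0.32) and EARS2 (-0.37) and SARS2 (-0.28) were lower, against 15.4% (9.93%) and 20% (14.8%) of genes. The medians were -0.0016 for cytosolic and -0.10 for mitochondrial members, beside -0.01 for all genes. In the combination against control, 0 members were at least 1.5-fold higher (5.87% of genes, or 3.15% of those at 100 or more) and 1, EARS2, was lower (4.67%, or 1.97%). At 1.2-fold 0 were higher and 4 were lower (18.4% and 16.9%, or 12.8% and 13%): EARS2, YARS2 (-0.39), VARS1 (-0.29) and MARS2 (-0.29). The medians were -0.10 for cytosolic and -0.07 for mitochondrial members, beside -0.0030 for all genes. Without the scaling both medians were positive (0.08 and 0.10) and the median of all genes was 0.17 higher, and in the combination against ultrasound only it was 0.21 higher. The combination against control shares an array with each of the other comparisons.

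The departure from additivity, that is the effect of ultrasound (log2) with Sonazoid present less its effect without Sonazoid, had a median of 0.05 for cytosolic and -0.04 for mitochondrial members, beside -0.02 for all genes. It was farthest from 0 for YARS2 (-0.70) and RARS1 (0.59), each on 1 probe set, and was not tested.

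Most partners of the enzymes also lay near control. Of 8 scaffold and tRNA delivery genes 4 were measured, and 0 reached 1.2-fold in either ultrasound comparison. Of all genes 20.8% were higher and 16.2% lower at 1.2-fold in the first, and 17.6% and 16.6% in the second. With 4 genes a count of 0 says little beside these shares. AIMP1 stood at 3476 in control and 3782 with ultrasound only, and EEF1D, a subunit of the exchange factor of elongation factor 1, at 8244 and 9137 (log2 0.15). EEF1A1, which carries charged tRNAs to the ribosome, differed by 0.14, and VBP1, a prefoldin subunit, by -0.04. Of 10 measured partners of mitochondrial aminoacylation 0 were higher at 1.5-fold in either ultrasound comparison (6.75% and 5.85% of all genes). In ultrasound only against control 0 were lower (4.03% of all genes). In the combination against Sonazoid only 2 were lower, where 4.36% of all genes and 1.6% of those at 100 or more were. MTFMT, which formylates the charged methionine tRNA that MARS2 makes, stood at 763 in control and 573 with ultrasound only (-0.41), and at 713 with Sonazoid only and 652 in the combination (-0.13). TUFM, the mitochondrial elongation factor, and MTO1, a tRNA-modifying enzyme, were each 0.22 higher with ultrasound only, and QRSL1, a subunit of the amidotransferase that makes glutaminyl-tRNA in mitochondria, was at -0.20.

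The 2 lower partners, named after their values were seen, were GTPBP3 and GATB. GTPBP3, which modifies mitochondrial tRNAs, stood at 468 with Sonazoid only and 263 in the combination (-0.83), and at 404 in control and 367 with ultrasound only (-0.14). GATB, which acts on the glutamate-charged tRNA that EARS2 makes, stood at 265 and 176 (-0.59), and at 248 and 251 (0.01). Both had their lowest signal in the combination, which the way they were picked makes likely. EARS2 and YARS2 had theirs there too, but so did many other members, KARS1, GARS1 and HARS1 among them.

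Of 10 measured synthetase-like and tRNA quality control genes 0 reached 1.5-fold in either ultrasound comparison. Of all genes 6.75% were higher and 4.03% lower in ultrasound only against control. In the combination against Sonazoid only 5.85% and 4.36% were. A count of 0 among 10 genes is near these shares. TARS3, a cytosolic threonine enzyme outside the symbol rule, stood at 219 and 284 without ultrasound and 297 and 219 with it, so its differences had opposite signs (0.44 and -0.38). TRNT1, which adds the CCA end that synthetases charge, was at -0.25 and -0.19, and XPOT, which exports tRNAs from the nucleus, at -0.13 and -0.05. PRORSD1P, a pseudogene of prolyl-tRNA synthetase domains, was below the floor with ultrasound only and just above it, at 27.3, in control.

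Some other genes of the ATF4 and amino acid response lay further from 0 than any synthetase. In ultrasound only against control 5 of 29 measured genes of the list were at least 1.5-fold higher and 0 lower. Of all genes 6.75% were higher, and of those at 100 or more 3.58%. CHAC1, among the 5, was counted on a lower bound. The median log2 difference was 0.24, beside 0.02 for all genes. In the combination against Sonazoid only 3 of 28 were higher (5.85% of all genes, or 2.75%) and 0 lower. The median there was 0.01, beside -0.0016 for all genes. PPP1R15A, which brings a phosphatase to eIF2 alpha, stood at 257 and 248 without ultrasound and 1043 and 933 with it. DDIT4, an inhibitor of mTORC1, stood at 538, 550, 1700 and 1666. ATF3, a stress-induced transcription factor, stood at 60.4, 33.7, 113 and 145. CHAC1, which degrades glutathione, had a control signal under the floor and 49.6 with ultrasound only, at least 2.08-fold higher. It stood at 29.7 with Sonazoid only and was below the floor in the combination.

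ATF4 itself was picked with its values in view and stood at 3916 and 4013 without ultrasound and 5075 and 5825 with it, so both arrays with ultrasound were above both without it, by 1.30-fold and 1.45-fold. The synthetase medians of -0.07 and -0.02 in ultrasound only against control thus stood beside 0.24 for the list. In the combination against Sonazoid only they were -0.04 and -0.05, beside 0.01 for the list, so the gap was much smaller there. Of the list 22 genes were above 0 and 7 below in the first comparison, and 15 and 13 in the second. The difference between the lists was not tested.

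**Figure D4:**
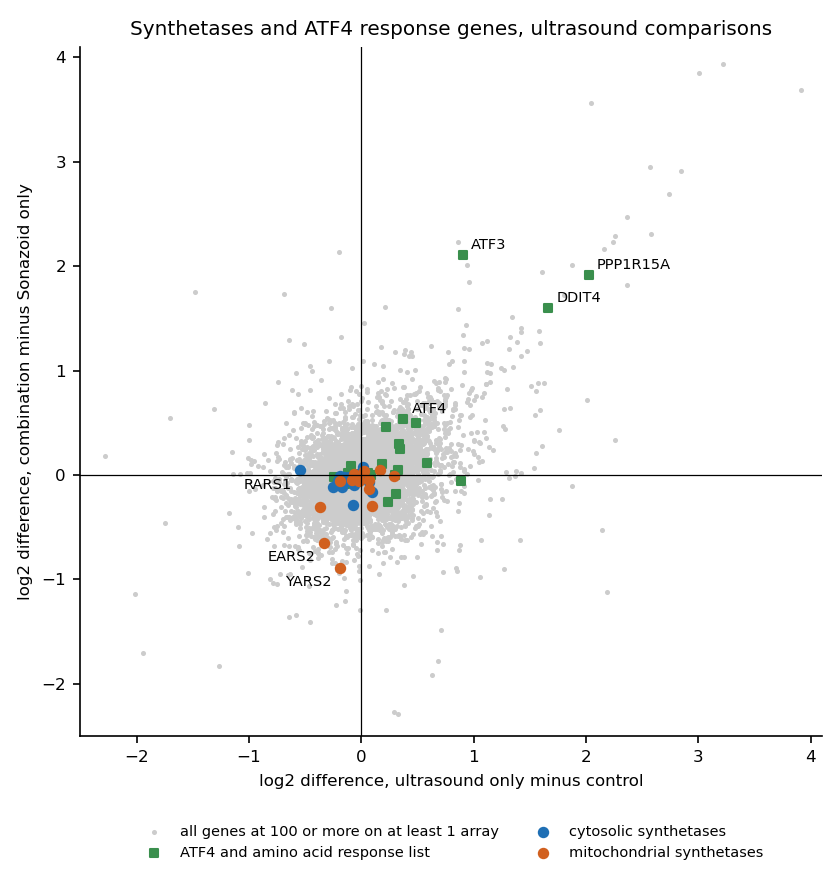
For each gene the log2 difference of ultrasound only from control is on the x axis and that of the combination from Sonazoid only on the y axis; grey points are genes at 100 or more on at least 1 array, green squares are ATF4 and amino acid response genes above the floor on the arrays compared, and blue and orange points are cytosolic and mitochondrial synthetases. PPP1R15A, DDIT4 and ATF3 lie at the upper right, while the synthetases lie around 0, with EARS2 and YARS2 below and RARS1 to the left.

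The list of eIF2 kinases and amino acid sensing genes, some of them of mTORC1, showed no common side. Of 12 measured genes 1 was at least 1.5-fold higher and 0 lower in ultrasound only against control (6.75% and 4.03% of all genes), with a median of -0.02. Against Sonazoid only, 0 were higher in the combination and 1 lower (5.85% and 4.36% of all genes), with a median of 0.06. EIF2AK4, the GCN2 kinase that uncharged tRNAs activate, was picked with its values in view, at 492, 479, 466 and 448 on the 4 arrays. CASTOR2, a relative of the arginine sensor CASTOR1, was that gene in both and was dim, at 30.6 and 118 without ultrasound and 47.2 and 31.3 with it. RRAGC, a Rag GTPase of mTORC1, was 0.46 higher with ultrasound only, CASTOR1 was at -0.35 and EIF2AK2, the double-stranded RNA kinase, -0.28. Of the interferon-gamma inducible genes, listed because WARS1 is one, 2 of 9 were at least 1.5-fold higher with ultrasound only and 0 lower (6.75% and 4.03% of all genes), with a median of 0.09. Against Sonazoid only, 1 of 7 was higher in the combination, CXCL10, and 1 lower, SOCS1 (5.85% and 4.36% of all genes). The 2 higher with ultrasound only were CXCL10, a chemokine, at 87.6 in control and 149 with ultrasound only, and SOCS1, an inhibitor of cytokine signals, at least 1.70-fold higher there, at least 2.27-fold lower in the combination against Sonazoid only, and dim. GBP2, a guanylate-binding protein, lay under the floor in control and at 35.7 with ultrasound only, just short of 1.5-fold over the floor, and IDO1, which degrades tryptophan, was at log2 -0.43 with dim signals. WARS1 was at -0.07 in the same comparison.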

How the data were processed

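RNA of 4 samples, 1 per group, was measured on Affymetrix Human Genome U133 Plus 2.0 arrays after one-cycle amplification from the 3' end, per the labels' protocols. Each deposited column holds a linear intensity per probe set. The authors' probe summary and scaling were not given in the sources used here. Their 2% trimmed means differed 1.16-fold, above a limit of 1.1-fold, so arrays were scaled to a common trimmed mean (control was multiplied by 1.04, Sonazoid only by 0.977, ultrasound only by 1.07, the combination by 0.923). Values under 23.8 were set to it, log2 was taken, and a difference with 1 side there is a lower bound ("at least"). Of 54675 probe sets the 41097 with 1 symbol were used, with symbols updated through Entrez identifiers by RefSeq (GRCh38.p14), and the brightest probe set stood for a gene. Genes above the floor on at least 1 of the arrays compared form the background.

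All members could be named; given with values on all arrays were chiefly those at least 1.2-fold lower or higher in both ultrasound comparisons or among the 3 highest or lowest of their compartment, and up to 4 genes were named per list, the farthest from 0 in ultrasound only against control. Exceptions are marked. The members and lists were chosen with earlier results of these data known. The labels give 1 sample per group, and no p-value or standard error was computed, and the number of arrays limits the precision. Alternatives were the deposited values, quantile normalisation, a floor of 100, no floor with 16 added, the mean of probe sets, gene-specific probe sets and thresholds of 1.2-fold and 2-fold. The steps were tested on simulated data. Python 3.11.15, pandas 2.3.3 and numpy 2.4.6 were used.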

Additional observations from a re-analysis of the deposited data

Results flagged for a closer look

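RARS1, the cytosolic arginine enzyme, differed in opposite directions between arrays with and without ultrasound when Sonazoid was added. It was lower by log2 -0.27 in Sonazoid only than in control and higher by 0.32 in the combination than in ultrasound only, a difference of 0.59 between both effects. It rests on 1 probe set and 1 array per group, and the difference was not tested.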

How the results depend on the processing

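Medians of the cytosolic and mitochondrial members minus that of all genes stayed within 0.1 (log2) of their value in all 5 comparisons and in the departure from additivity, under the 6 alternatives of scaling, floor and probe set. Counts at 1.5-fold were small. With the values as deposited 1 member was lower in ultrasound only against control, 1 in the combination against Sonazoid only and 0 in the combination against control, and 1 was higher in Sonazoid only against control. With the mean of probe sets 0 were lower in the combination against control. In the combination against Sonazoid only the lower ones were then FARSB (-0.60) and YARS2 (-0.89), while EARS2 was at -0.38. With gene-specific probe sets, which 27 members had, 1 was higher in ultrasound only against control, 2 in Sonazoid only against control and 1 in the combination against control, through dim probe sets of YARS1 and FARSB, and 3 were lower in the combination against Sonazoid only, with FARSB (-0.77) beside EARS2 and YARS2. At 1.2-fold the counts higher and lower were 1 and 3 for ultrasound only against control, 0 and 5 for the combination against Sonazoid only, 1 and 1 for Sonazoid only against control, 1 and 2 for the combination against ultrasound only, and 0 and 4 for the combination against control; at 2-fold all were 0. The causes were not tested, apart from the thresholds, which set the counts directly. Of 160 member differences 0 past 1.5-fold changed sign under any alternative, while signs near 0 did (53 with the values as deposited). No paired analysis was possible because each group has 1 array.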
